A study of Mus musculus with 2 samples.

Results

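Described here are 9 genes that encode transcription factors used to tell apart the projection neurons of the cerebral cortex: Tbr1, Bcl11b, Fezf2, Sox5, Cux1, Cux2, Pou3f1, Pou3f2 and Pou3f3. They were picked from the 32285 genes counted by symbol, by a rule that uses no measured value, although earlier results of these data were known when the set was put together, and each of the 9 symbols matched 1 row. Single-cell RNA sequencing (scRNA-seq) was performed at E14.5 on dissected dorsal telencephalon from WT embryos of the mouse, which the labels give as brain hemispheres of controls of the EomesMllt3 line, drawn from an Eomes-Cre line. The study's methods name the mice as C57BL/6J, and whether these controls carried the Cre allele and how many embryos made up a library is not given in the sources used here. No embryo was treated, and both libraries belonged to 1 group, with 1 library from each of 2 samples that the labels call separate and number 1 and 3. All comparisons were therefore made between cell classes, and p-values measure only the spread between these 2 libraries, which may be technical.

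Projection neurons are the glutamatergic neurons of the cortex. They arise from radial glial cells (RGCs), directly or through intermediate progenitor cells (IPCs), and settle in layers in the order of their birth, the deep layers first. In the deep layers TBR1 and SOX5 are known for corticothalamic and subplate neurons and FEZF2 and BCL11B (CTIP2) for subcerebral neurons, whereas CUX1, CUX2 and the POU factors POU3F1 (OCT6), POU3F2 (BRN2) and POU3F3 (BRN1) are known for neurons of the upper layers, and BCL11B, CUX1 and CUX2 are also known from GABAergic neurons. For short, the first 4 genes are called deep-layer genes and the other 5 upper-layer genes, which names their textbook use and not a result.

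The filters left 5149 cells in replicate 1 and 6854 in replicate 3, out of libraries of 64182006 and 93295807 UMIs (unique molecular identifiers, 1 per captured RNA molecule), and 23 cell barcodes occurred in both libraries. They fell into 28 clusters, which were named "-like" from marker genes that included none of the 9 genes, and the 9 genes were also kept out of the clustering. Projection neuron-like cells made up 49.2% of the kept cells in replicate 1 and 40.0% in replicate 3, RGC-like cells 12.5% and 22.4%, IPC-like cells 9.75% and 12.96%, and interneuron-like cells of the medial ganglionic eminence (MGE) 6.53% and 3.18%. Interneuron-like cells of the caudal ganglionic eminence (CGE) were 259 cells in replicate 1 against 24 in replicate 3, and neurons like those of the lateral ganglionic eminence (LGE) 118 against 1. The part of this unequal makeup in the results was not tested. A level below is the sum of UMIs of a gene over the cells of a class in 1 replicate, given per 1000000 UMIs of these cells (CPM), and levels are compared between cells and never between genes, since their lengths differ. Whether replicates of classes overlap is a description with no test, and the share of all genes without overlap was not computed.

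On the mm10 (GRCm38) assembly the 9 genes lie on chromosome 2 (Tbr1), 12 (Bcl11b), 14 (Fezf2), 6 (Sox5), 5 (Cux1 and Cux2), 4 (Pou3f1 and Pou3f2) and 1 (Pou3f3). Their RefSeq spans run from 3.01 kb for Pou3f1 to 954 kb for Sox5. In GENCODE vM39, which is built on another assembly, Tbr1, Bcl11b and Fezf2 overlapped no other gene among those counted here. Overlaps with genes that were not counted were not read. Each of the other 6 overlapped at least 1 lncRNA gene (Sox5os1 to Sox5os5 and Sox5it at Sox5, Gm16599 at Cux1, Gm3970 and Gm15637 at Cux2, Gm2164 at Pou3f1, Gm30731 at Pou3f2, and Pantr1, Pantr2 and Gm20646 at Pou3f3). Sox5it and Gm20646 lie on the same strand as their partner. The strand setting of the counting is not given in the sources used here, so UMIs of these 6 genes and of the lncRNAs that overlap them are uncertain. The Cux1 locus also encodes a Golgi protein from shared exons, and counts per gene cannot separate the 2 products.

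To set start regions of the genes beside their levels, the 250 bases before a listed RefSeq start are shown for Tbr1, nearly absent from RGC-like cells, and for Fezf2, already present in them. They are also shown for Cux2 (the second of 2 starts), part of the pair found together most above its expected number, and for Pou3f2, higher in replicate 1 in progenitors and neurons alike. A listed start need not be the outermost start of its gene. Capitals mark the matches of the motifs searched.
Tbr1, chr2:61804203-61804452, plus strand: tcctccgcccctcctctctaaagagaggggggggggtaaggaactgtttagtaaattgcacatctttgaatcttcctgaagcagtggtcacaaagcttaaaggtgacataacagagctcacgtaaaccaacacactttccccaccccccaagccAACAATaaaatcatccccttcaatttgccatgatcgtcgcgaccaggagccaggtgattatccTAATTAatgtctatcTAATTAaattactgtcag
Fezf2, chr14:12345866-12346115, minus strand: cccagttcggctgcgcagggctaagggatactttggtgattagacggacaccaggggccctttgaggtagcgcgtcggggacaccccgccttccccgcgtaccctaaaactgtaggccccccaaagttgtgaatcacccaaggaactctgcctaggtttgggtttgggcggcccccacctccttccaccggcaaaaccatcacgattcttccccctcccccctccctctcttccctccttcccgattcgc
Cux2, chr5:122047826-122048075, minus strand: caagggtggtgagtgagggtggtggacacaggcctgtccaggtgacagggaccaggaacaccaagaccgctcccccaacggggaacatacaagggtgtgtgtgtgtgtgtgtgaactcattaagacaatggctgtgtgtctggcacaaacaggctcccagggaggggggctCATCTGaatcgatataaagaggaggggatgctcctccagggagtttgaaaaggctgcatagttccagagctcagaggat
Pou3f2, chr4:22488367-22488616, minus strand: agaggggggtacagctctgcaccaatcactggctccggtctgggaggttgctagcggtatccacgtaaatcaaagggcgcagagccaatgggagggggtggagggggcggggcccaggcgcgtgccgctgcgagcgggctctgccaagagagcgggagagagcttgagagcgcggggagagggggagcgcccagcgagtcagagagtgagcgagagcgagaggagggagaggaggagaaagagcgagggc
The motifs searched on both strands were CAGATG (an E-box of the NEUROD and NEUROG kind), AGGTGT (T-box core), AACAAT (SOX core), ATGCAAAT (octamer of POU factors) and TAATTA (homeodomain core), none of which overlaps another here. Tbr1 held TAATTA at 2 positions and AACAAT at 1, and the second Cux2 start held CAGATG at 1, written as its reverse complement. None of the 5 motifs was present before the listed starts of Bcl11b, Fezf2, Sox5, Cux1, Pou3f2 and Pou3f3 or the first start of Cux2. Only the windows of Pou3f2 and Pou3f3 lie outside the RefSeq span of their gene. Those of Tbr1, Bcl11b, Fezf2, Sox5, Cux1 and Cux2 lie inside it, so these are internal starts. The Sox5 window, at chr6:143947107-143947356, lies far inside a span of 143828425 to 144782287 on the minus strand. Of all 32851 mouse promoter windows of 300 bases, 5.29% held TAATTA, 10.7% AACAAT, 17.2% CAGATG, 13.7% AGGTGT and 1.74% ATGCAAAT. These matches are descriptions of letters and not of bound sites. Pou3f1 had no entry in the promoter table used.

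Tbr1, which encodes a T-box factor of early-born glutamatergic neurons, was near absent from RGC-like cells, appeared in IPC-like cells and was highest in postmitotic glutamatergic cells. RGC-like cells held 5.2 CPM in replicate 1 and 3.9 CPM in replicate 3, while IPC-like cells held 39.6 and 35.0 CPM and projection neuron-like cells 131 and 158 CPM. Cajal-Retzius-like cells, the Reln-expressing neurons of the marginal zone, held 208 and 180 CPM. On the CPM scale the replicates of these classes did not overlap between any 2 of them, but with TMM scaling the difference of Cajal-Retzius-like from projection neuron-like cells was 0.33 in replicate 1 and -0.16 in replicate 3 on the log2 scale, so the order of these 2 classes depends on the scaling. MGE interneuron-like cells held 5.6 and 10.0 CPM, and the 8 classes below IPC-like cells in the order of 11 classes all overlapped with a neighbour.

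Bcl11b, a zinc finger factor that directs subcerebral axons, was high in projection neuron-like and interneuron-like cells and low in progenitors, and so did not mark glutamatergic neurons alone. Projection neuron-like cells held 600 and 753 CPM, MGE interneuron-like cells 516 and 462 CPM and CGE interneuron-like cells 408 and 457 CPM, whereas IPC-like cells held 62.5 and 67.5 CPM and RGC-like cells 19.1 and 16.7 CPM. Cajal-Retzius-like cells, although neurons, held 51.5 and 69.8 CPM and overlapped with IPC-like cells. The 118 LGE neuron-like cells of replicate 1 had the highest level found, 1885 CPM, and 94.7% of those deep enough for a fixed depth of 3000 UMIs had a UMI (90 of 95 cells, 95% Wilson interval 88.3% to 97.7%, counting error only). Striatal projection neurons, which arise from the LGE, are known to carry BCL11B. Replicate 3 held 1 such cell, so this level has no replicate.

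Fezf2, a zinc finger factor that specifies subcerebral neurons, was already present in the progenitors. RGC-like cells held 53.2 and 67.5 CPM, IPC-like cells 64.9 and 86.8 CPM and projection neuron-like cells 129 and 149 CPM. RGC-like and IPC-like cells overlapped between replicates, while projection neuron-like cells stood above both. The next class was the hem or choroid plexus-like cells of the cortical midline at 40.2 and 30.4 CPM, and the other 7 classes held 10.0 CPM or less in each replicate. In Cajal-Retzius-like cells 0 of 31 and 0 of 69 cells had a Fezf2 UMI at the fixed depth, which at this depth allows shares of up to 9.68% and 4.35%. Without thinning 0 of 31 and 7 of 69 cells (10.1%) had one.

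Sox5, an SRY-box factor that times the production of deep-layer neurons, was higher in projection neuron-like cells (3332 and 3804 CPM) than in any of the other 10 classes, whose highest values were 712 and 669 CPM. These were found in pericyte-like cells, the mural cells of vessels, where 78.9% and 72.1% of cells had a UMI at the fixed depth, beside 8.51% and 6.56% of red blood cell-like cells, a class in which the gene is not known to act. Pericyte-like and IPC-like cells (696 and 655 CPM) overlapped, and RGC-like cells held 377 and 326 CPM.

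**Figure D1:**
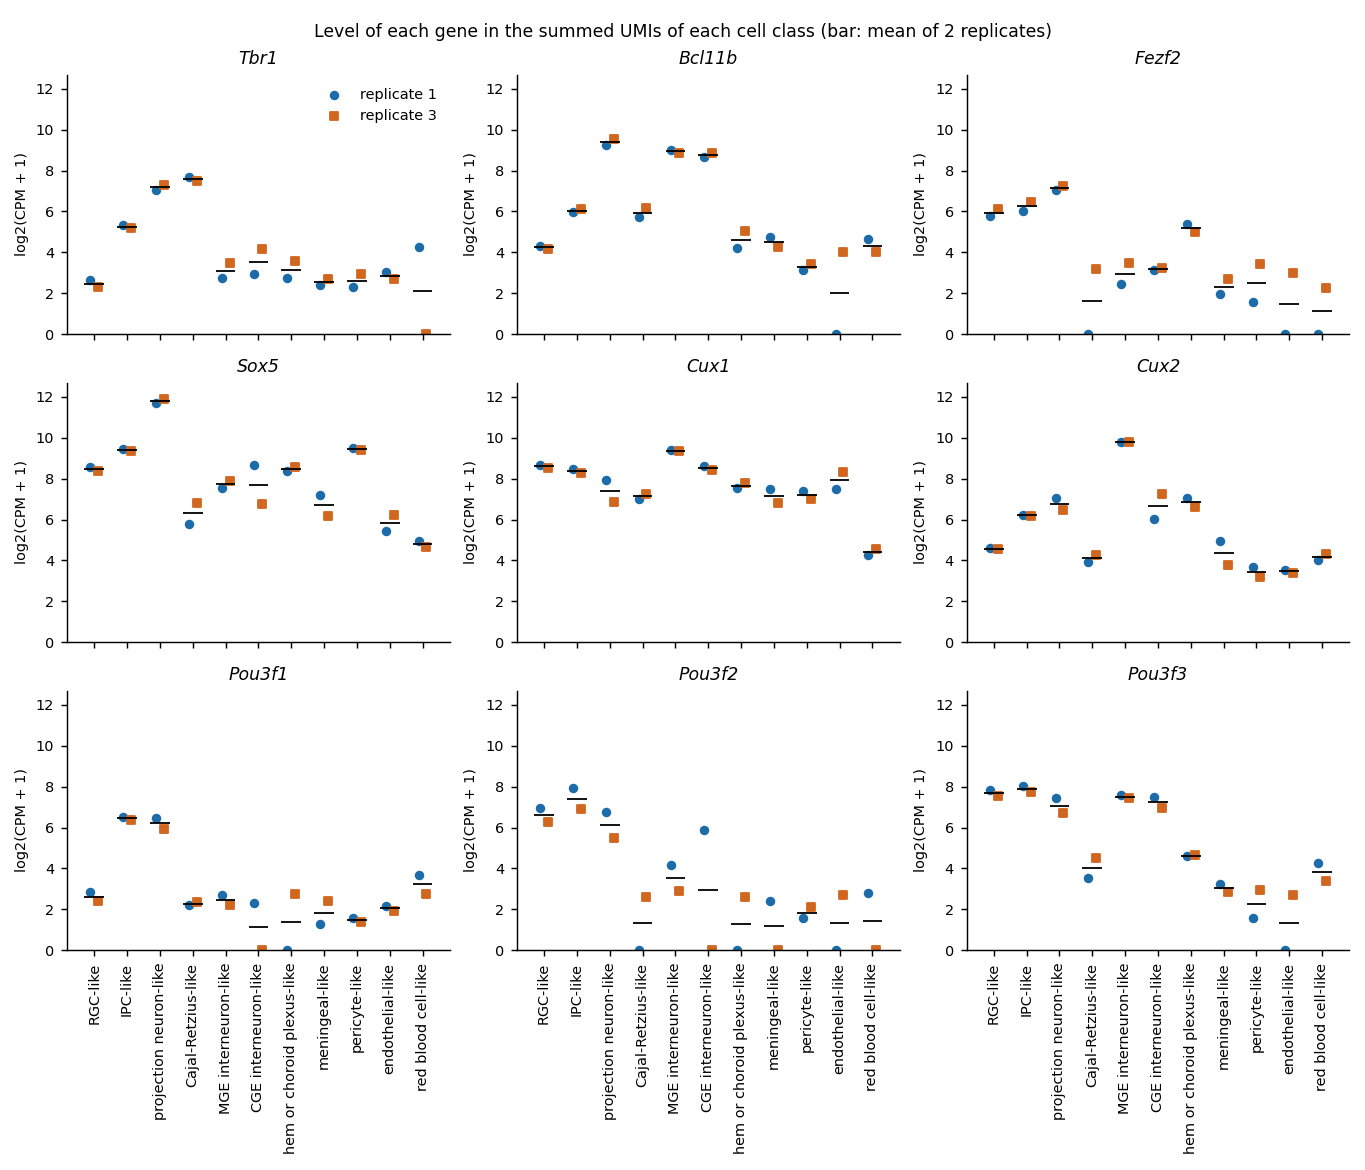
Level of each of the 9 genes in 11 cell classes, as log2(CPM + 1) of the summed UMIs of a class, with a circle for replicate 1, a square for replicate 3 and a bar for their mean. Sox5 and Bcl11b peak in projection neuron-like cells, Cux1 and Cux2 in MGE interneuron-like cells, and the 3 Pou3f genes in IPC-like cells. Tbr1 peaks in Cajal-Retzius-like cells in CPM, an order that turns in replicate 3 with TMM scaling.

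The upper-layer genes were not highest in projection neuron-like cells. Cux1, a cut-homeobox factor that acts on dendrites of upper-layer neurons, ranked 7th of the 11 classes in projection neuron-like cells, where replicate 1 held 244 CPM and replicate 3 114 CPM. MGE interneuron-like cells held 684 and 644 CPM, above all other classes, and RGC-like cells 405 and 371 CPM. Cux1 UMIs were found in vessel cells too, with 42.9% and 62.2% of endothelial-like cells at the fixed depth, but in only 4.26% and 6.56% of red blood cell-like cells.

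Cux2, its close relative, was highest in MGE interneuron-like cells, which held 879 and 883 CPM, and the next class, hem or choroid plexus-like cells, held 132 and 97.0 CPM. CGE interneuron-like cells did not share this level, at 64.8 and 150 CPM. Projection neuron-like cells held 131 and 87.1 CPM, IPC-like cells 74.8 and 71.5 CPM and RGC-like cells 23.3 and 22.2 CPM. At 3000 UMIs per cell 86.9% and 88.5% of MGE interneuron-like cells had a Cux2 UMI, against 25.6% and 20.01% of projection neuron-like cells and 0% and 1.64% of red blood cell-like cells. Without thinning these shares were 92.0% and 90.8%, and 42.5% and 34.2%.

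Pou3f1, Pou3f2 and Pou3f3 encode POU-domain factors that share much of their DNA binding. Pou3f1 was nearly limited to IPC-like cells (92.1 and 81.8 CPM) and projection neuron-like cells (88.3 and 60.4 CPM), which overlapped, and no other of the 11 classes exceeded 12.02 CPM. The LGE neuron-like cells of replicate 1, which stand outside these classes, held 142 CPM. Pou3f2 was highest in IPC-like cells (240 and 119 CPM), followed by RGC-like cells (124 and 76.9 CPM) and projection neuron-like cells (108 and 44.0 CPM), and replicate 1 was the higher in all 3. Pou3f3 had the widest reach of the 3, since IPC-like cells held 265 and 210 CPM, RGC-like cells 231 and 188 CPM, MGE interneuron-like cells 191 and 172 CPM and projection neuron-like cells 176 and 102 CPM. Each of these 4 classes overlapped with its neighbour in the order.

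From RGC-like to IPC-like cells 5 of the 9 genes rose and 0 fell. The difference was tested with edgeR's quasi-likelihood test on the summed UMIs of the 2 replicates, with Benjamini-Hochberg adjustment over 15292 genes and a threshold of 0.05, and of all these genes 19.0% were called higher and 20.3% lower. Pou3f1 rose most, with 4.12 as its log2 fold change (SE 0.22, adjusted p = 4.95e-07). Tbr1 followed with 3.08 (SE 0.18, adjusted p = 8.89e-07), then Bcl11b with 1.93 (SE 0.16, adjusted p = 9.56e-06), Cux2 with 1.75 (SE 0.19, adjusted p = 4.17e-05) and Sox5 with 1.01 (SE 0.22, adjusted p = 0.00471). The other 4 did not pass. Fezf2 (0.40, SE 0.22, adjusted p = 0.183) and Pou3f2 (0.90, SE 0.43, adjusted p = 0.126) passed when the replicate was fitted as a block (adjusted p = 0.0374 and 0.00186), while Pou3f3 was at 0.25 (adjusted p = 0.447) and Cux1 at -0.18 (adjusted p = 0.649). With predicted doublets kept and the cells clustered again, the Bcl11b and Sox5 differences fell to 0.29 (adjusted p = 0.335) and 0.10 (adjusted p = 0.698), and 3 of the 9 genes passed.

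From IPC-like to projection neuron-like cells all 4 deep-layer genes rose, whereas the upper-layer genes split. Of all genes 25.1% were called higher and 22.6% lower in this comparison, in which 5 of the 9 genes rose and 1 fell. The log2 fold change was 3.52 for Bcl11b (SE 0.17, adjusted p = 9.54e-08), 2.55 for Sox5 (SE 0.23, adjusted p = 7.69e-06), 2.10 for Tbr1 (SE 0.15, adjusted p = 1.39e-06), 1.01 for Fezf2 (SE 0.22, adjusted p = 0.00303) and 0.72 for Cux2 (SE 0.17, adjusted p = 0.00594). Cux1 fell by 0.72 (SE 0.27), close to the threshold (adjusted p = 0.0498). Pou3f1 did not pass at -0.07 (adjusted p = 0.763), nor did Pou3f2 at -1.07 (adjusted p = 0.0616) and Pou3f3 at -0.62 (adjusted p = 0.0519), which both passed with the replicate block (adjusted p = 0.000182 and 0.00531). The Cux1 call was lost with a stricter filter on cells, with doublets kept and with the 9 genes allowed in the clustering (adjusted p = 0.0518 to 0.0810), and the Cux2 call with doublets kept (adjusted p = 0.0681).

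**Figure D2:**
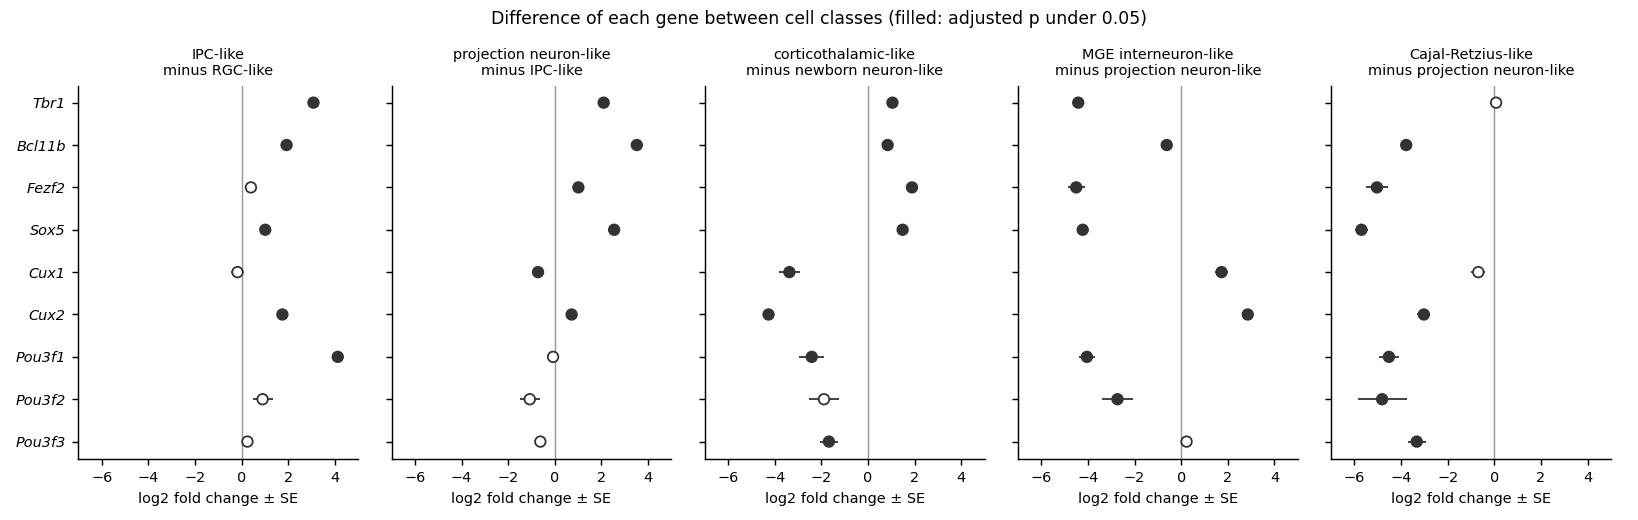
Log2 fold change of each gene between cell classes with its SE, from summed UMIs of 2 replicates, in 5 comparisons whose first class minus the second is given above each panel. Filled points passed an adjusted p of 0.05, and the right-hand panels place Cux1 and Cux2 above 0 in MGE interneuron-like cells and 7 genes below 0 in Cajal-Retzius-like cells.

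Within the projection neuron-like cells, 3 clusters carried most markers of newborn neurons (1495 and 1548 cells) and 2 those of corticothalamic neurons (854 and 911 cells). Of the latter, the cluster led by Ldb2 (566 and 586 cells) had only 5 of 9 corticothalamic markers, and the one led by Hs3st4 9 of 9. The corticothalamic-like subclass held 598 and 636 cells at resolution 2, and 549 and 570 with the 9 genes allowed in the clustering. The rule that a subclass must lead by 2 markers was set after the data were seen, and it left 1 cluster of 465 cells (183 and 282), led by Slit3, Gm32647 and Crym, without a subclass. No cluster could be named subplate-like, so the subplate-like cells were not compared.

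Between these subclasses 4 of 4 deep-layer genes were higher in corticothalamic-like cells and 4 of 5 upper-layer genes were lower. Newborn neuron-like and corticothalamic-like cells can differ in maturity as well as in layer. Which of these the split of the genes follows was not tested. Of all 14027 genes tested here, 12.1% were called higher and 9.05% lower. Fezf2 was at 217 and 233 CPM in corticothalamic-like and 52.5 and 74.8 CPM in newborn neuron-like cells, which is 1.89 on the log2 scale (SE 0.18, adjusted p = 0.00207). Sox5 was at 5695 and 5873 CPM against 1801 and 2516 CPM (1.49, SE 0.21, adjusted p = 0.0068), Tbr1 at 181 and 250 CPM against 107 and 111 CPM (1.05, SE 0.15, adjusted p = 0.00817) and Bcl11b at 814 and 967 CPM against 428 and 610 CPM (0.84, SE 0.19, adjusted p = 0.032). The 2 subclasses did not overlap in any of these genes, but the share of all genes without overlap was not computed.

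The largest differences went the other way. Cux2 was nearly absent from corticothalamic-like cells, at 10.95 and 8.5 CPM against 235 and 164 CPM in newborn neuron-like cells (log2 fold change -4.27, SE 0.24, adjusted p = 0.00056). Cux1 was at 37.8 and 19.98 CPM against 424 and 206 CPM (-3.37, SE 0.45, adjusted p = 0.00619), Pou3f1 at 34.4 and 9.4 CPM against 137 and 109 CPM (-2.41, SE 0.53, adjusted p = 0.0281) and Pou3f3 at 87.9 and 41.1 CPM against 264 and 170 CPM (-1.67, SE 0.39, adjusted p = 0.0331). Pou3f2 did not pass, at 49.1 and 13.5 CPM against 168 and 76.8 CPM (-1.89, SE 0.63, adjusted p = 0.0866), but did with the replicate block (adjusted p = 0.000454). In corticothalamic-like cells 2.4% and 2.3% had a Cux2 UMI at the fixed depth, against 43.1% and 33.1% of newborn neuron-like cells. The Bcl11b and Pou3f3 calls were lost without the filter on low counts (adjusted p = 0.0587 and 0.0520).

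Single clusters of progenitors differed in Cux2, Tbr1, Bcl11b and the POU factors. The cycling IPC-like cluster led by Spc25 and Cenpe, proteins of dividing chromosomes, already held 109 and 116 CPM of Cux2 and 385 and 177 CPM of Pou3f2. In contrast, the IPC-like cluster led by Rmst and Synpr, with Lhx9 and Prox1 among its leading genes, held little Pou3f1 (8.7 and 7.4 CPM) and Pou3f2 (20.5 and 18.2 CPM), but 94.4 and 105 CPM of Pou3f3 and 59.0 and 56.1 CPM of Tbr1. An unnamed cluster of 929 cells, which carried 8 of 10 IPC markers but was led by neuronal genes such as Unc5d and Slc17a6, lay between IPC-like and newborn neuron-like cells in Bcl11b, at 245 and 338 CPM. Its Pou3f2, at 310 and 162 CPM, was above both in each replicate, and its Pou3f1 was at 137 and 114 CPM.

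Corticothalamic-like cells were not uniform either. The cluster led by Hs3st4 and Rgs6 held 266 and 324 CPM of Tbr1 and little of the POU factors (Pou3f2 at 6.0 and 1.9 CPM, Pou3f1 at 5.3 and 1.6 CPM, Pou3f3 at 22.1 and 11.7 CPM). The cluster led by Ldb2 and Kirrel3 had less Tbr1 (136 and 204 CPM) and kept some Pou3f2 (72.4 and 20.8 CPM) and Pou3f3 (123 and 59.6 CPM). Fezf2 went against Tbr1 here, at 178 and 188 CPM in the first and 239 and 262 CPM in the second. In the cluster without a subclass, led by Slit3 and Crym, Fezf2 was at 224 and 205 CPM and Bcl11b at 752 and 734 CPM, while Tbr1 was at 74.2 and 96.2 CPM and Cux2 at 4.9 and 8.6 CPM. The newborn neuron-like cluster led by Tafa1 and Tafa2, with 490 cells from replicate 1 and 202 from replicate 3, had Tfap2d among its leading genes. It combined high Tbr1 (172 and 174 CPM) with high Cux2 (244 and 252 CPM) and little Fezf2 (16.2 and 24.1 CPM). Whether its cells are of the same kind as the other newborn neuron-like cells was not tested. These cluster values are descriptions with no test.

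**Figure D3:**
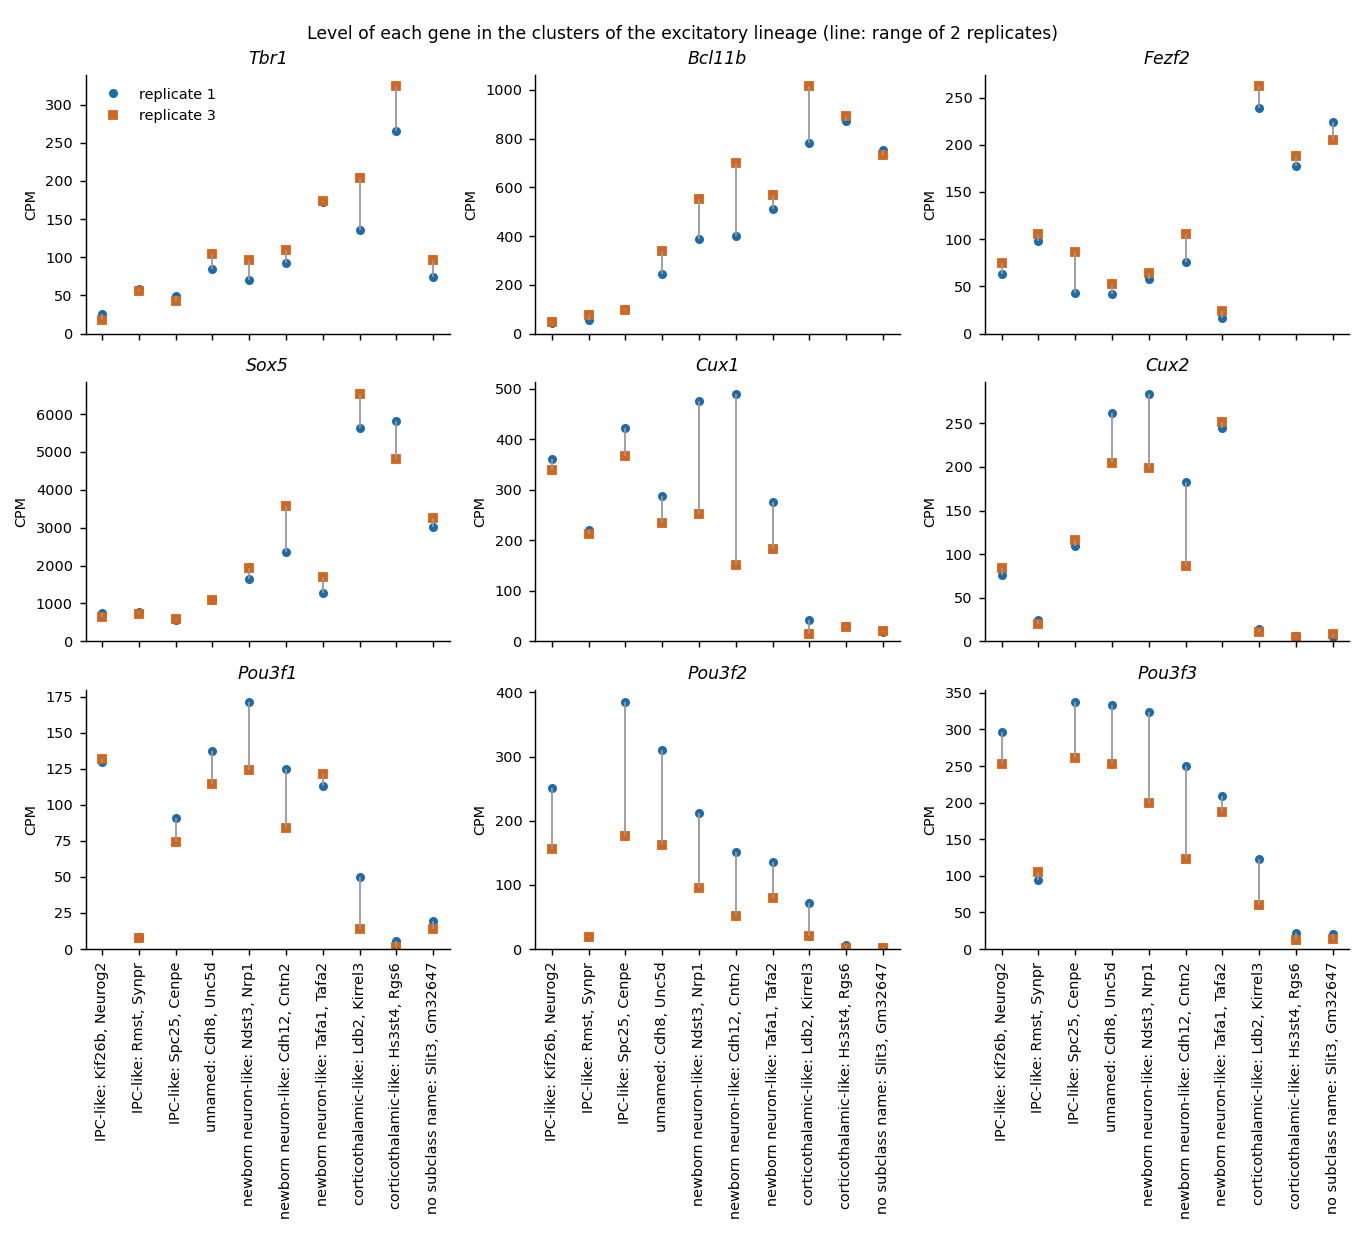
Level of the 9 genes in CPM in 10 clusters, of which 1 is unnamed and the others are IPC-like or projection neuron-like. Clusters are labelled by class or subclass and leading genes, with a circle for replicate 1, a square for replicate 3 and a line for their range. Cux1 and Cux2 are at most 41.4 CPM in the 3 clusters at the right, where Fezf2 lies between 178 and 262 CPM.

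The 2 libraries differed within the newborn neuron-like clusters. In the cluster led by Cdh12 and Cntn2, replicate 1 held 489 CPM of Cux1 against 151 CPM in replicate 3, 183 against 86.6 CPM of Cux2 and 151 against 51.2 CPM of Pou3f2, while Bcl11b was at 400 against 700 CPM and Sox5 at 2345 against 3583 CPM. In the cluster led by Ndst3 and Nrp1, Cux1 was at 475 against 253 CPM and Bcl11b at 389 against 554 CPM. In the cluster led by Tafa1 and Tafa2, Cux1 (277 against 182 CPM), Pou3f2 (135 against 80.1 CPM) and Pou3f3 (209 against 187 CPM) were also higher in replicate 1 and Bcl11b (511 against 570 CPM) and Sox5 (1288 against 1711 CPM) in replicate 3, while Cux2 (244 against 252 CPM) and Pou3f1 (113 against 122 CPM) were slightly higher in replicate 3. Over the whole projection neuron-like class all 5 upper-layer genes were higher in replicate 1 and all 4 deep-layer genes in replicate 3. With 1 library on each side this has no test, and the share of all genes higher in either replicate was not computed. Genes found in the same cells are also not separate observations.

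GABAergic and glutamatergic neurons were compared next, as MGE interneuron-like against projection neuron-like cells, whose sums are the same as those set against IPC-like cells above. Only Cux1 and Cux2 were higher and 6 of the 9 genes were lower in MGE interneuron-like cells, where 12.9% of all genes were called higher and 20.3% lower. Cux2 was 2.86 higher on the log2 scale (SE 0.18, adjusted p = 1.74e-06) and Cux1 by 1.73 (SE 0.28, adjusted p = 0.000935). Fezf2 (-4.50, SE 0.37, adjusted p = 1.21e-05), Tbr1 (-4.41, SE 0.24, adjusted p = 6.55e-07), Sox5 (-4.22, SE 0.26, adjusted p = 1.29e-06) and Pou3f1 (-4.04, SE 0.34, adjusted p = 1.32e-05) were lower by similar amounts. Pou3f2 was lower by less (-2.73, SE 0.67, adjusted p = 0.00961) and Bcl11b by least (-0.62, SE 0.15, adjusted p = 0.00995). Pou3f3 did not pass (0.23, SE 0.25, adjusted p = 0.514), and its difference was -0.03 in replicate 1 and 0.56 in replicate 3. The Pou3f2 call was lost with doublets kept (-1.49, adjusted p = 0.0838).

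In Cajal-Retzius-like cells Tbr1 did not pass the threshold against projection neuron-like cells, which does not show it to be equal, and 7 of the other genes were lower. A UMI of Bcl11b was still found in 41.9% and 44.9% of Cajal-Retzius-like cells without thinning and one of Sox5 in 32.3% and 44.9%. In this comparison, which uses the same projection neuron-like sums again, 0 of the 9 genes were higher and 7 were lower, against 11.6% and 15.1% of all genes. Tbr1 was 0.08 higher (SE 0.16, adjusted p = 0.769), by 0.33 in replicate 1 and -0.16 in replicate 3, and 38.7% and 39.1% of Cajal-Retzius-like cells had a Tbr1 UMI at the fixed depth beside 30.9% and 36.2% of projection neuron-like cells. Cux1 did not pass either (-0.69, SE 0.30, adjusted p = 0.127). Sox5 lay at -5.70 on the log2 scale (SE 0.29, adjusted p = 4.58e-07) and Bcl11b at -3.78 (SE 0.19, adjusted p = 4.58e-07), and the other 5 lay between -5.04 and -3.02. With 31 and 69 cells the low levels rested on few UMIs, as 0 and 8 of Fezf2, 0 and 5 of Pou3f2 and 2 and 4 of Pou3f1, so that the fitted sizes of these 3 depend on the prior count.

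The scaling moved the balance of calls over all genes, by over 10 percentage points in 3 comparisons. Of the called genes, 52.5% were higher in projection neuron-like than in IPC-like cells, and 42.0% with library sizes alone. The share was 39.0% for MGE interneuron-like cells, 52.6% with library sizes and 51.5% with DESeq2, and 43.5%, 71.2% and 56.5% for Cajal-Retzius-like cells. It also went from 57.2% to 48.1% with library sizes in corticothalamic-like against newborn neuron-like cells, and from 48.3% to 41.7% in IPC-like against RGC-like cells. Library sizes shifted the median of all genes by -0.14, 0.15 and 0.34 on the log2 scale in the first 3 comparisons, and DESeq2 by 0.11 in the MGE interneuron-like and the Cajal-Retzius-like one. Under both no gene of the 9 changed direction, and the calls that changed were gains of Pou3f2 and Pou3f3 in projection neuron-like against IPC-like cells with library sizes (adjusted p = 0.0355 and 0.0192).

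Other transcription factors of the lineage were read beside the 9 genes from a list of 24, of which 23 were tested. In IPC-like against RGC-like cells 10 were higher and 3 lower, led by Myt1l (log2 fold change 3.95), Sox11 (2.46) and Sox4 (2.43), which act in new neurons. In projection neuron-like against IPC-like cells 12 were higher and 6 lower, with Sox6 at -5.63, Ldb2 at 5.37 and Mef2c at 4.61. Between corticothalamic-like and newborn neuron-like cells 5 were higher and 8 lower, with Etv1 at -3.74, Lhx2 at -3.20 and Ldb2 at 2.60. In MGE interneuron-like cells 5 were higher and 15 lower, with Sox6, a known factor of these interneurons, at 6.44, Bhlhe22 at -4.95 and Nfix at -4.76. In Cajal-Retzius-like cells 2 were higher and 14 lower, with Ldb2 at -6.63, Mef2c at -5.22 and Emx2 at 4.90. The median log2 fold change of the 9 genes in the 5 comparisons was, in this order, 1.01, 0.72, -1.67, -2.73 and -3.78, against 0.46, 0.67, 0.00, -1.70 and -1.70 for the 23 genes and -0.00, 0.02, -0.00, -0.09 and -0.11 for all genes tested.

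Whether the genes shared cells was then read from cells with a UMI of Neurod2 or Neurod6, which encode bHLH factors of postmitotic glutamatergic neurons. Each cell was thinned to 3000 UMIs, leaving 3614 cells of replicate 1 and 4753 of replicate 3. Of these 67.6% and 55.3% were projection neuron-like, 12.4% and 16.5% IPC-like, 4.76% and 9.45% RGC-like and 10.9% and 15.4% in unnamed clusters, so these cells are not neurons alone. At this depth Sox5 was found in 87.9% and 86.5% of them, Bcl11b in 56.8% and 57.0%, Cux1 in 43.5% and 37.6%, Pou3f3 in 42.5% and 33.1%, Tbr1 in 25.2% and 25.5%, Fezf2 in 20.2% and 24.2%, Cux2 in 25.7% and 21.3%, Pou3f2 in 28.6% and 17.9% and Pou3f1 in 21.0% and 17.4%. For each of the 36 pairs the number of cells with both was divided by the number expected from the product of the 2 shares. These ratios are descriptions, with no test, and cells of 1 library are not replicates.

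Genes of the same layer group were found together more often than expected, and genes of different groups mostly less often. All 6 deep-layer pairs were above 1 in both replicates, with means of 1.06 to 1.29, and all 10 upper-layer pairs were too, with 1.34 to 1.74. Tbr1 and Bcl11b were together in 644 cells of replicate 1 where 517 were expected and in 926 of replicate 3 where 690 were expected (ratios 1.25 and 1.34). Cux2 and Pou3f1 were together in 317 cells where 195 were expected and in 325 where 176 were expected (1.63 and 1.85). Of the 20 mixed pairs 15 were below 1 in both replicates, and 3 were above 1 in both, namely Tbr1 with Cux2 (1.01), Sox5 with Cux2 (1.02) and Sox5 with Pou3f1 (1.04).

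Fezf2 stood out among the deep-layer genes in these mixed pairs, with the 5 lowest ratios of all. It shared 72 cells with Cux2 where 188 were expected in replicate 1 and 152 where 245 were expected in replicate 3 (0.38 and 0.62), and 9.86% and 13.2% of Fezf2 cells had Cux2 against 29.7% and 23.9% of cells without Fezf2. With Pou3f2, Pou3f1, Cux1 and Pou3f3 the mean ratios of Fezf2 were 0.62, 0.63, 0.66 and 0.70. Bcl11b, in comparison, had 0.78 with Cux1 and 1.002 with Cux2, where its replicates fell on either side of 1 (0.95 and 1.06). Sox5, present in most cells, had 0.96 to 1.04 with the 5 upper-layer genes, a range its high share limits.

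Much of this pattern followed the clusters. With the expected number computed in each cluster and summed, the 10 upper-layer pairs remained above 1 in both replicates, at 1.08 to 1.29, with Cux2 and Pou3f2 the highest. The deep-layer pairs came to 1.001 to 1.05. Among projection neuron-like cells alone, with the expected number from all of these, the deep-layer pairs lay between 1.005 and 1.09, with 5 of the 6 above 1 in both replicates, against 1.64 to 2.05 for the upper-layer pairs. With the expected number summed over clusters, of the mixed pairs 9 were below and 7 above 1 in both replicates. The 5 pairs of Fezf2 kept the lowest values, from 0.77 with Cux2 to 0.91 with Cux1.

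**Figure D4:**
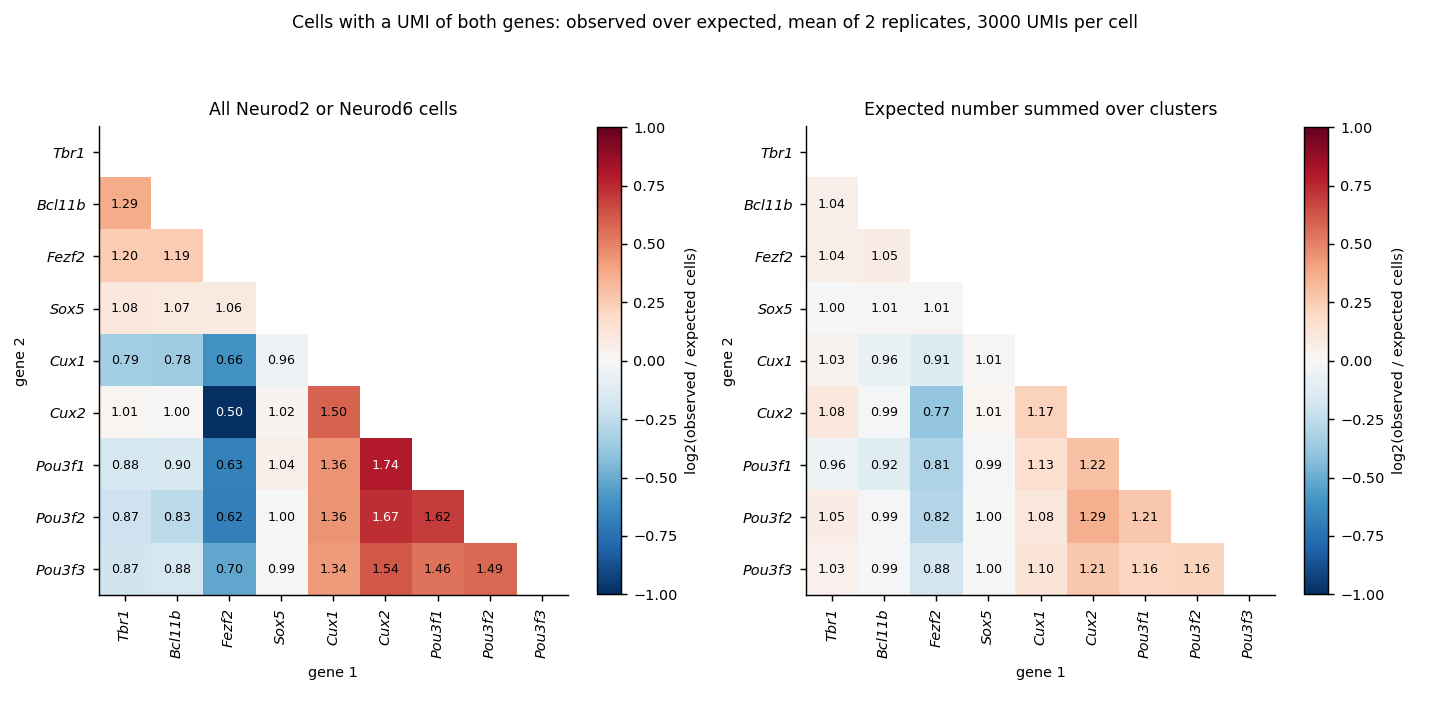
Ratio of observed to expected cells with a UMI of both genes for the 36 pairs, as the mean of 2 replicates in Neurod2 or Neurod6 cells thinned to 3000 UMIs, with the expected number from all cells at the left and summed over clusters at the right. Colour gives the log2 of the ratio, red above and blue below the expected number, and the Fezf2 column is bluest against the 5 upper-layer genes, 0.50 with Cux2 at the left.

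Single cells with genes of both groups were counted too. Sox5 by itself was found in 87.9% and 86.5% of Neurod2 or Neurod6 cells. The share with both groups therefore says little beyond the share with an upper-layer gene, and no expected number was computed for it. At least 1 deep-layer gene was found in 94.3% and 91.6% of Neurod2 or Neurod6 cells, at least 1 upper-layer gene in 71.5% and 64.5%, and at least 1 of each in 67.1% (95% Wilson interval 65.6% to 68.6%) and 58.7% (57.3% to 60.1%). In projection neuron-like cells alone both groups were found in 62.7% and 50.4%. This is not particular to neurons, since 56.7% and 54.7% of RGC-like cells had genes of both groups at the same depth. In red blood cell-like cells, read as background, it was 0 of 47 and 2 of 61 cells (3.28%), the first of which allows up to 6.38%. In endothelial-like cells, also read as background, it was higher, at 1 of 14 (7.14%) and 4 of 37 cells (10.8%). Deep-layer genes alone were found in 27.2% and 32.9% of cells and upper-layer genes alone in 4.40% and 5.87%. All 4 deep-layer genes were detected in 4.93% and 6.06% of cells.

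**Figure D5:**
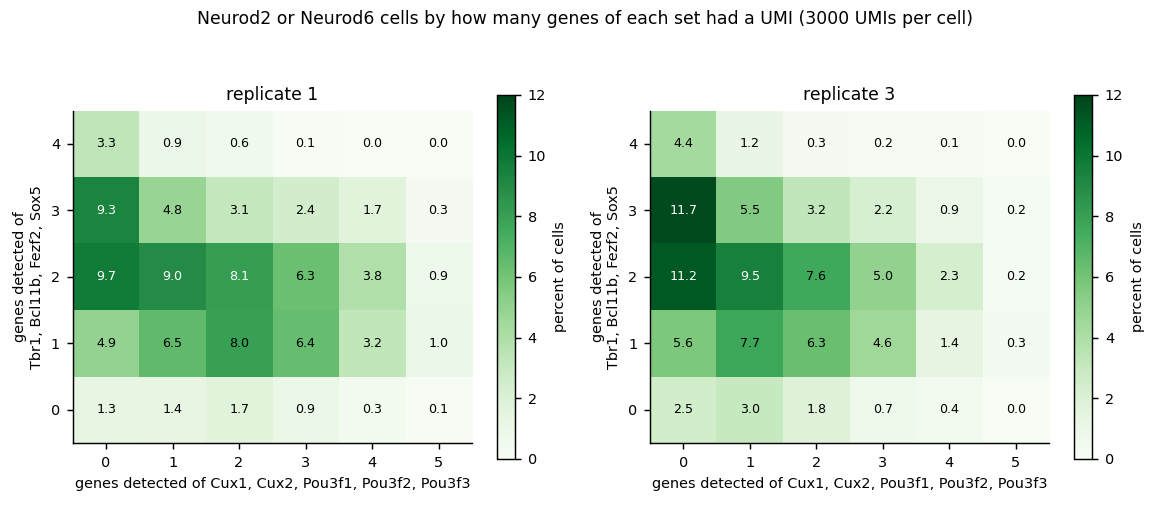
Percent of Neurod2 or Neurod6 cells in each replicate by how many of the 4 deep-layer genes (vertical axis) and of the 5 upper-layer genes (horizontal axis) had a UMI at 3000 UMIs per cell. The fullest fields hold 2 or 3 deep-layer and 0 upper-layer genes, and no cell held all 9.

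The genes whose level over 23 clusters was most like that of each of the 9 were found by Pearson's r of log2(CPM + 1) over 15291 other genes, given as a description whose points share 2 libraries. For Cux1 the most similar gene was Gm16599 (r = 0.95) and for Pou3f1 it was Gm2164 (0.88), both lncRNA genes that overlap them on the other strand. For Pou3f3 the 3 most similar were Gm28175 (0.93), 307 kb away, and Gm20646 (0.93) and Pantr1 (0.92), which overlap it. The neighbourhood thus led the list for 3 of the 9 genes.

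Pou3f2, on another chromosome, was most like Shisa2 (0.89), Pou3f3 (0.89) and Pantr1 (0.89). Among the deep-layer genes, Bcl11b was most like Kcnq3 (0.97), Rab3c (0.96) and Lrrtm4 (0.96), Tbr1 like 4930578M01Rik (0.92), L1cam (0.91) and Rtn2 (0.91), Sox5 like Enc1 (0.90), Herc3 (0.89) and Zfp647 (0.87), and Fezf2 like 3110039M20Rik (0.87), Gpc4 (0.84) and Lix1 (0.83). Cux2 had the weakest best partner, Arl4d (0.82), followed by Scn1a (0.79) and Gm27008 (0.79). Within the set, Pou3f2 and Pou3f3 (0.89) and Fezf2 and Sox5 (0.78) had the highest r, and Tbr1 and Cux1 the lowest (-0.31).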

How the data were processed

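The values were UMI counts per gene and barcode, which the authors made with Cell Ranger 7.0.0 on mm10 and deposited without normalization, the libraries being of the 10x Genomics 3' v3.1 kind. The annotation, intron setting and cell calling are not given in the sources used here, and 502 and 500 UMIs were the lowest barcodes. The 9 genes, though picked by symbol, and the gene lists were chosen with earlier results of these data known.

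Barcodes outside 1500 to 60000 UMIs or with 10% or more mitochondrial UMIs were removed (710 and 1387), and 304 (4.93%) and 629 (7.09%) predicted doublets were removed with a reimplementation of Scrublet, their number set per library by its barcodes. Leiden clusters (resolution 1, 15 neighbours, 30 components, 2000 variable genes, seed 1) were named with 140 markers of 19 classes, which needed at least 3 markers on (scaled level over 0.5, at least 10% of cells). The 9 genes and the 24 other factors were in neither, but genes that vary with them were. The classes were thus made from the same cells that were tested, which the p-values do not take into account. UMIs were summed per class and replicate and tested with edgeR (TMM, filter on low counts, prior count 2), and SEs were computed as the log2 fold change, unsigned, divided by the root of edgeR's F. Same-numbered sums share a library and are thus paired (correlation of paired differences 0.0193 to 0.2466 for classes, 0.2899 for subclasses, across genes), and the block was an alternative, as were DESeq2 and the settings listed at the end. Thinning drew UMIs without replacement. Shares have 95% Wilson intervals, and a count of 0 allows 3 counts, both for counting error only. Over all barcodes before filtering the median depth was 9802 and 9754 UMIs. Among kept cells it differed by class, with medians of 4545 and 4037.5 UMIs in MGE interneuron-like and 13301.5 and 12184 in RGC-like cells. On simulated counts 5.97% of log2 changes of 0.5, 62.0% of 1 and 75.8% of 2 were recovered for projection neuron-like against IPC-like sums over 15292 genes, with 0 wrong signs. Of the 111 calls there 16 were false. The simulated classes shared 1 mean per gene except for 200 changed genes, and sums were drawn independently. The data differ in both, so these rates need not hold for them. False calls were 11 of 118 for IPC-like against RGC-like sums and 16 of 107 for corticothalamic-like against newborn neuron-like sums. They were 4 of 81 for MGE interneuron-like and 3 of 67 for Cajal-Retzius-like against projection neuron-like sums. In the Cajal-Retzius-like comparison 0% of changes of 0.5, 24.2% of 1 and 72.7% of 2 were recovered.

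Named were the 9 genes, for each comparison the 3 of the 24 other factors with the largest change past the threshold and the same sign in both replicates, and for each gene the 3 most similar over clusters. The pairs of 1 further gene are not reported here. The clusters described by level, and the classes set beside the Neurod2 or Neurod6 cells for genes of both groups, were chosen after values were seen. Promoter sequences and coordinates came from RefSeq (GRCm38.p6), gene overlaps from GENCODE vM39 (GRCm39). Software was Python 3.11.15, scanpy 1.11.5, R 4.3.3, edgeR 4.0.16 and DESeq2 1.42.0.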

Additional observations from a re-analysis of the deposited data

How the results depend on the processing

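The number of the 9 genes called stayed within 1.5 times under each alternative run (DESeq2, library sizes, no filter on low counts, the replicate block, a stricter filter on cells, doublets kept, resolution 2, the 9 genes allowed among the variable genes), except that in IPC-like against RGC-like cells it fell from 5 to 3 with predicted doublets kept. Of 459 single values of genes under an alternative, 421 kept their direction and side of the threshold or stayed within the spread, 19 gained and 9 lost a call, and 8 moved. The replicate block added 5 calls and lost 0. Reversed was only Tbr1 in Cajal-Retzius-like cells, which was not called, at -0.018 without the filter on low counts (adjusted p = 0.994) and -0.064 with doublets kept (adjusted p = 0.852), and the cause was not tested. Without the newborn neuron-like cluster led by Tafa1, an alternative added after seeing the data, 8 of the 9 genes were again called. The number of pairs below their expected number in both replicates fell from 15 to 9 with expected numbers summed over clusters, and was 14 to 20 with cells thinned to 1500 or 6000 UMIs or not thinned, with both Neurod2 and Neurod6 asked for, in projection neuron-like cells or with doublets kept, and 16 in either replicate alone. Values from 1 replicate alone have no test, as 1 sum a class is left. Subplate-like cells were not compared, since no cluster had that name. With 2 libraries, 2 sums a class and few Cajal-Retzius-like cells, small changes can be missed. On the simulated counts changes of 0.5 on the log2 scale were mostly not recovered. A gene that did not pass is not shown to be equal between classes.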
